A study of Mus musculus with 15 samples.

Results

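Antiviral interferon-stimulated genes encode the proteins by which a cell recognises viral nucleic acid and blocks its translation, replication and release. The group described here was given as 39 mouse gene symbols covering antiviral sensors and effectors, without the guanylate-binding and immunity-related GTPase families and without antigen presentation. A symbol counted as a member when the count table had its row and its mean over all libraries was at least 0.5 CPM, that is, counts per M counts of the library after scaling. All 39 qualified, of 55571 gene rows in the table. Their means ran from 4.71 CPM for Ifit3b, the member nearest to the limit, to 812 CPM for Ifitm3, and no listed symbol fell below it.

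The data are RNA sequencing of E0771, a mouse mammary carcinoma cell line that, per the series title, was sequenced without T cell coculture. There were 5 groups of 3 libraries: cells carrying Malt1_V87R, cells carrying Malt1_L88D, cells carrying Malt1_PD, cells carrying the wild-type Malt1_WT and cells carrying the empty vector (Vector). MALT1 is a paracaspase that works with BCL10 upstream of NF-kB as a scaffold and as a protease, and V87 and L88 lie in its N-terminal death domain. PD is the labels' own abbreviation, and the columns of these libraries carry the name Malt1_C461A. The labels name no further allele or agent, and they do not say whether a line is a pool or a clone or whether replicates were separate cultures. The p-values therefore rest on library-to-library spread, which may be technical, and differences between lines cannot be told apart from those between constructs. No deletion of the endogenous Malt1 gene is named for any group.

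In the textbook pathway, secreted interferons bind receptors whose kinases JAK1 and TYK2 activate STAT2 and related factors. With IRF9, STAT2 takes part in a complex that binds the interferon-stimulated response element (ISRE) in the promoters of antiviral genes, and the gamma-activated site (GAS) is a further element of interferon-responsive promoters. IRF1, itself inducible by NF-kB and by interferon, binds sequences that resemble the ISRE. In cells that meet no virus, many antiviral genes keep a low level of expression that depends on the same factors.

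Promoters were read first, because the ISRE is known from many antiviral genes. No promoter sequence was used to choose the members, but they were listed as interferon-stimulated genes. A high ISRE share was therefore to be foreseen and is no result of the constructs. The RefSeq promoter table (GRCm38.p6, 250 bases before to 50 after each gene start) held 28 of the 39 members. The others, Oas1b, Oas2, Dhx58, Zbp1, Usp18, Mx1, Mx2, Parp9, Parp14, Ifi27 and Rtp4, are named only. The 3 motifs below were searched on both strands, with overlapping matches counted. The ISRE core GAAANNGAA was in 18 of the 28 members (64.3%), against 9.76% of the 27025 genes in the table. The GAS motif TTCNNNGAA was in 8 of 28 (28.6%), against 9.55% of genes, and in Bst2 and Ifitm3 a match overlapped an ISRE match. The kB motif start GGGNNTTTC was in 0 of 28, against 5.06% of genes. A match describes letters in this window and nothing about binding.

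The 5 promoters below belong to members on which the results turn: Ifit3, which rose in every construct, Rsad2, with its highest level in Malt1_WT, Oas1a, high in Malt1_PD and Malt1_WT, Trim21, high in Malt1_V87R, Malt1_L88D and Malt1_WT, and Dtx3l, which rose without a match. Capitals mark every match to the ISRE core on either strand, so that a match on the other strand reads as its reverse complement.

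Ifit3 (chr19:34583279-34583578, plus strand): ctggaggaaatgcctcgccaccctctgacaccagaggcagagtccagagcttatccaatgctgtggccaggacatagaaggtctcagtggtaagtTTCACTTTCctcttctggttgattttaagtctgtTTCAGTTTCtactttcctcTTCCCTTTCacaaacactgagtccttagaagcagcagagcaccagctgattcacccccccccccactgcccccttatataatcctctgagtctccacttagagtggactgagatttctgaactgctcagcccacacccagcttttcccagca

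Rsad2 (chr12:26456403-26456702, minus strand): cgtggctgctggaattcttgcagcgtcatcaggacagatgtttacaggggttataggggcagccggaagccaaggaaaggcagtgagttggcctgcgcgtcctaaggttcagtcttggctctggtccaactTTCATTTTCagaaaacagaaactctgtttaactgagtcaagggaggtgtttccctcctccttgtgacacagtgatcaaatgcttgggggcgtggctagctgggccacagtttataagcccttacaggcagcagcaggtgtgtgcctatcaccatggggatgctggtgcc

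Oas1a (chr5:120907476-120907775, minus strand): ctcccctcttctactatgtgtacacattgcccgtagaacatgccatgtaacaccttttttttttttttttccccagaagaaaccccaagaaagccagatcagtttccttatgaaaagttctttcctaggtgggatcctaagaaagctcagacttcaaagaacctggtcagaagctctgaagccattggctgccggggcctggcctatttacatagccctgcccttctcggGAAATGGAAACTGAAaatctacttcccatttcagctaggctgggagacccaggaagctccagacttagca

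Trim21 (chr7:102565433-102565732, minus strand): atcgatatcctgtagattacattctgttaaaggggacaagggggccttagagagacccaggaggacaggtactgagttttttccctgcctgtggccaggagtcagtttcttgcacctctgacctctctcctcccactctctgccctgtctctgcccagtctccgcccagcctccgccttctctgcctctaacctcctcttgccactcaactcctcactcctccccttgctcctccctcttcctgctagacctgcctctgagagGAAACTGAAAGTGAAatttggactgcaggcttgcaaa

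Dtx3l (chr16:35938978-35939277, minus strand): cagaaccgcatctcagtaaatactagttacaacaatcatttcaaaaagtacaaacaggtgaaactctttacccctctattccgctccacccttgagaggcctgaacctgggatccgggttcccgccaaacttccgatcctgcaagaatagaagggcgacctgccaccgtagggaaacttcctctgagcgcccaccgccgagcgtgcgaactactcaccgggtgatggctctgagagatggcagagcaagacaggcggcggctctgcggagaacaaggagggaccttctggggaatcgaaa

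Ifit3 held 3 separate cores, at -155, -121 and -102 from its start (first base, with the start as +1). Its neighbour Ifit3b held the same number with the same spacing, at -187, -153 and -134. In Oas1a and Trim21 a pair of overlapping cores formed a single longer run, before the start in Oas1a and just after it in Trim21. Rsad2 held a single core at -119.

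Library totals ran from 15.5 to 21.5 M counts, and the lowest count of any member in any library was 44, for a member whose standard errors below are larger than those of most others (Ifit3b). Malt1 itself read 279, 279 and 281 CPM in Malt1_V87R, 258, 245 and 251.1 in Malt1_L88D, 259.7, 247 and 243 in Malt1_PD, 207, 193 and 205 in Malt1_WT and 26.4, 30.2 and 27.8 in Vector cells, so that every construct library stood well above the vector libraries. The Malt1_V87R libraries were the highest, and the Malt1_WT libraries lay below every mutant library. Effects of a mutation and of a different Malt1 level therefore cannot be told apart in comparisons with Malt1_WT. Counts per gene do not show which Malt1 sequence was expressed. Levels below are CPM, and ± beside a log2 fold change is its standard error (SE). Fold changes come from edgeR's quasi-likelihood fit to all 15 libraries, and a gene was called at a Benjamini-Hochberg adjusted p under 0.05 over all genes that passed the filter on low counts, as all 39 members did. Of cell types that a tumour line could be mixed with, 15 macrophage and dendritic cell markers summed to 43.5 to 47.0 CPM in Malt1_V87R, 46.2 to 68.1 CPM in Malt1_L88D, 79.7 to 84.4 CPM in Malt1_PD, 74.6 to 78.7 CPM in Malt1_WT and 45.7 to 48.8 CPM in Vector cells. Cd68, Cd14, Fcer1g and Lyz2 made up most of each sum. Cd14 averaged 22.9 CPM in Malt1_PD and 23.4 in Malt1_WT against 8.03 in Vector cells. In the same order, Cd68 averaged 19.0 and 25.2 against 12.0, and Fcer1g 14.1 and 12.9 against 16.9. Itgax averaged 4.27 and 4.35 against 2.23, Mrc1 1.78 and 2.60 against 0.697, Csf1r 2.72 and 1.57 against 0.962, and Adgre1 0.592 and 1.23 against 0.133. Lyz2 averaged 13.7 CPM in Malt1_L88D (5.49, 19.5 and 16.2) and 14.3 in Malt1_PD, against 4.63 in Malt1_WT and 5.66 in Vector cells. C1qb averaged 0.535 in Malt1_L88D and 0.541 in Malt1_PD against 0.0719 in Vector cells, and C1qc 0.377 and 0.371 against 0.0514. Ptprc, Itgam, C1qa, Aif1 and Tyrobp averaged at most 0.241 CPM in any group. Of the 12 T and NK cell markers, whose sum stayed at or under 1.55 CPM, Nkg7 and Ncr1 were at 0 in every library, as was Siglech, which defines plasmacytoid dendritic cells. The plasmacytoid list of 6 genes includes Bst2, a member. Its 5 other genes summed to 104 to 109 CPM in Malt1_V87R, 110.4 to 114 CPM in Malt1_L88D, 87.2 to 106 CPM in Malt1_PD, 93.02 to 102 CPM in Malt1_WT and 92.4 to 115 CPM in Vector cells. Nearly all of this was Tcf4, with group means of 83.3 to 98.4 CPM, and Irf8, with 7.92 to 13.4. Ly6d and Ccr9 averaged at most 0.20 CPM in any group. The endothelial list (6 genes) was at 14.69 to 15.68 CPM in Malt1_V87R, 15.1 to 17.4 CPM in Malt1_L88D, 22.01 to 23.83 CPM in Malt1_PD, 21.1 to 23.75 CPM in Malt1_WT and 18.1 to 19.5 CPM in Vector cells, so that the construct groups did not overlap the vector. Pecam1 and Vwf made up most of these sums, and Kdr, Tek and Emcn averaged at most 0.287 CPM in any group. The fibroblast list (8 genes) was at 384 to 408 CPM in Malt1_V87R, 387 to 396 CPM in Malt1_L88D, 444 to 466 CPM in Malt1_PD, 393 to 402 CPM in Malt1_WT and 402 to 432 CPM in Vector cells. Col3a1, Pdgfra and Pdgfrb made up most of these sums, while Col1a2, Lum and Thy1 averaged at most 0.609 CPM in any group. Of the epithelial markers Krt8 was at 89.9 CPM in Malt1_V87R, 94.995 in Malt1_L88D, 116 in Malt1_PD, 89.6 in Malt1_WT and 117 in Vector cells. Epcam averaged 7.58 CPM in Malt1_V87R, 7.46 in Malt1_L88D, 5.66 in Malt1_PD, 6.01 in Malt1_WT and 9.74 in Vector cells. Krt18, the partner keratin of Krt8, and Krt7, Cdh1 and Cldn3 averaged under 0.5 CPM in each group.

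All 4 constructs had most antiviral genes above the vector level. Of the 39 members, 32 rose in Malt1_V87R, 33 in Malt1_L88D, 33 in Malt1_PD and 32 in Malt1_WT, against Vector cells in each case. The Z-nucleic acid sensor Zbp1, the ADP-ribosyltransferase Parp14 and the IFIT gene Ifit3 had the 3 largest rises in each construct but Malt1_PD, where Oas1g took the place of Ifit3. Zbp1 rose by up to 4.97-fold and Parp14 by up to 4.07-fold. These 4 comparisons share the Vector libraries, and those below share the Malt1_WT or Malt1_PD libraries, so their values are set side by side and not counted as separate evidence. In bulk RNA, more expressing cells and more RNA per cell cannot be told apart. Each call was recomputed under 13 other settings (scalings, filter, tests and libraries left out). Over the 10 comparisons 223 of 251 calls held under all of them, and a call that some of them ended is marked so where it is printed.

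The share of all genes that changed differed between constructs. Members were listed with earlier results of these data known, so the shares below are a description and not a test. In Malt1_V87R the 32 rises made up 82.1% of members, against 7.01% of all genes tested. In Malt1_L88D the 33 rises were 84.6% of members, against 8.96% of all genes. In Malt1_PD the 33 rises were again 84.6%, against 22.8% of genes, and in Malt1_WT the 32 rises were 82.1%, against 27.2%. None of the 39 was called lower in Malt1_V87R, Malt1_L88D or Malt1_PD (unadjusted p under 0.05 gave 1, 0 and 0 falls, and DESeq2 gave 0, 0 and 0), where 4.7%, 8.43% and 22% of all genes were. Malt1_WT had 1 fall (2.56% of members, against 27.7% of genes), in Bst2. The median log2 fold change of the members was 0.52 in Malt1_V87R, 0.52 in Malt1_L88D, 0.41 in Malt1_PD and 0.56 in Malt1_WT, beside medians over all genes from -0.010 to -0.0024.

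**Figure D1:**
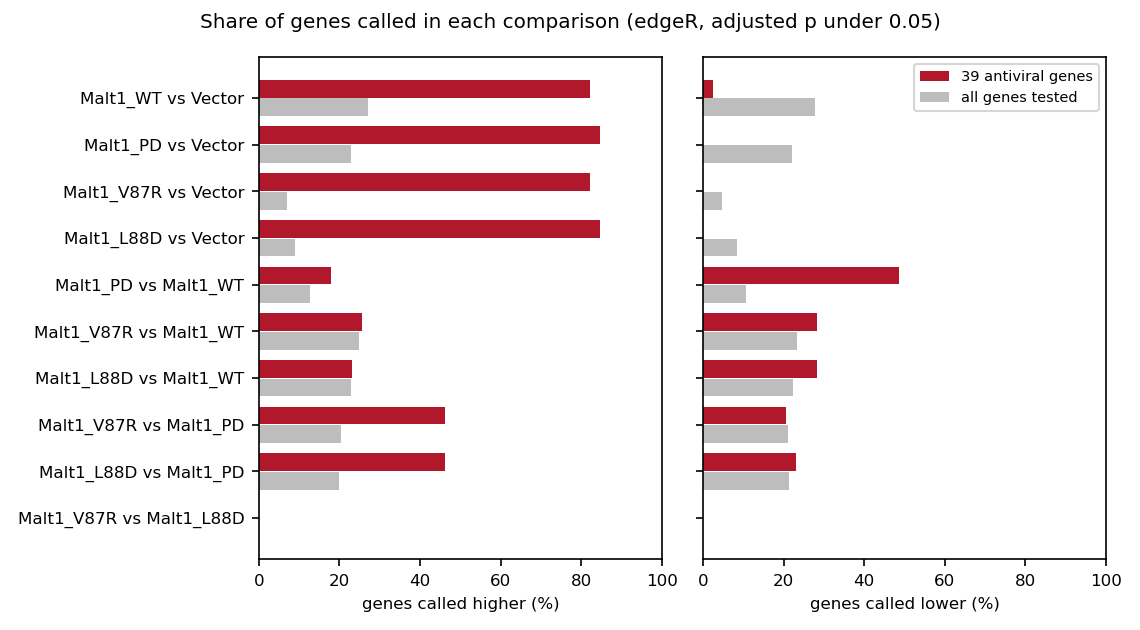
Share of the 39 antiviral genes (red) and of all genes tested (grey) called higher (left) or lower (right) in each of the 10 comparisons, in percent, by edgeR at an adjusted p under 0.05. Against Vector the red bars for higher genes reach 82.1% to 84.6% in every construct, while the grey bars fall to 7.01% in Malt1_V87R and 8.96% in Malt1_L88D.

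**Figure D2:**
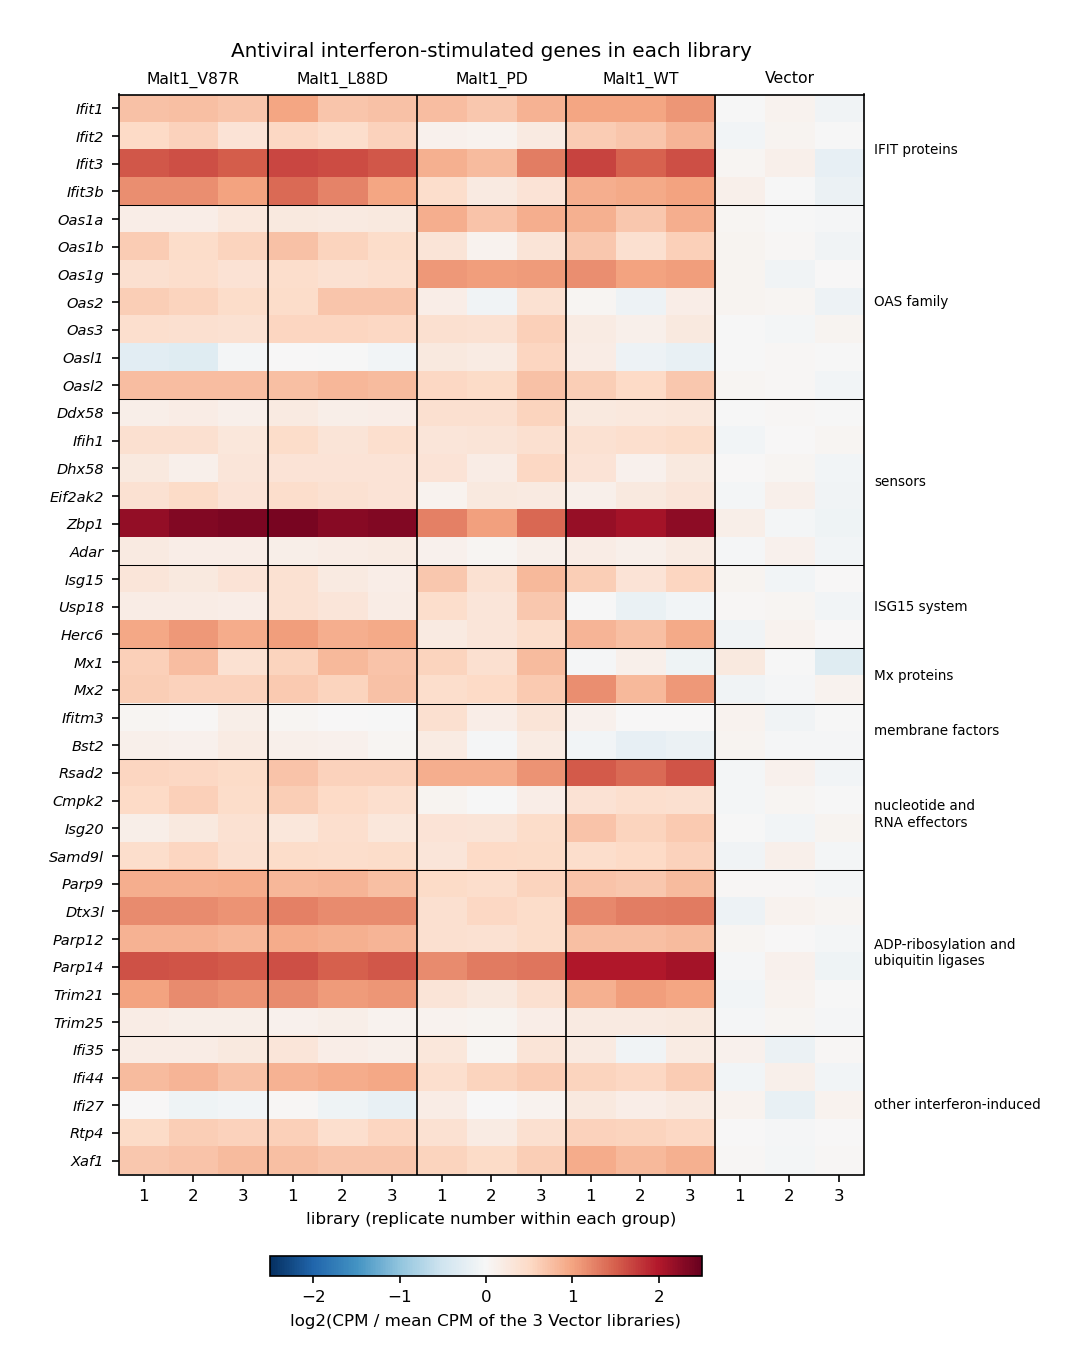
Level of each of the 39 members in each of the 15 libraries, as log2 of CPM over the mean of the 3 Vector libraries (colour), grouped by role from top to bottom and by construct from left to right. Zbp1, Parp14, Ifit3 and Dtx3l stand out in most construct libraries, Malt1_PD is paler than the other constructs for Zbp1 and Dtx3l, and Oas1a and Oas1g are strongest in Malt1_PD and Malt1_WT.

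The IFIT proteins bind viral RNA and hold back its translation. Ifit1, which recognises incompletely methylated caps, was at 121, 122 and 117 CPM in Malt1_V87R, 144, 118 and 121 in Malt1_L88D, 124, 116 and 133 in Malt1_PD, 144, 144 and 155 in Malt1_WT and 72.3, 77.3 and 68.5 in Vector cells. All constructs lay above the vector range, and Malt1_WT and 1 Malt1_L88D library reached the highest values. Its log2 fold change was 0.73 ± 0.07 in Malt1_V87R, 0.81 ± 0.07 in Malt1_L88D, 0.78 ± 0.07 in Malt1_PD and 1.03 ± 0.07 in Malt1_WT against Vector (largest adjusted p = 4.0e-08).

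Ifit3, a partner that stabilises IFIT complexes, had 24.99, 26.0 and 24.6 CPM in Malt1_V87R, 27.3, 26.3 and 24.9 in Malt1_L88D, 15.8, 14.703 and 20.8 in Malt1_PD, 27.4, 23.6 and 26.2 in Malt1_WT and 8.87, 9.39 and 7.39 in Vector cells. The Malt1_PD libraries sat between the vector and the other constructs and overlapped neither. Against Malt1_WT, Malt1_PD was lower (-0.58 ± 0.10 on the log2 scale, adjusted p = 6.8e-05), while Malt1_V87R differed from Malt1_WT by -0.03 ± 0.09 (95% interval -0.22 to 0.16) and was not called. Its copy Ifit3b had 6.02, 6.04 and 5.41 CPM in Malt1_V87R, 7.25, 6.42 and 5.38 in Malt1_L88D, 3.66, 3.14 and 3.42 in Malt1_PD, 5.08, 5.23 and 5.46 in Malt1_WT and 2.97, 2.701 and 2.45 in Vector cells. Ifit3b rose against Vector by 1.102 ± 0.15 in Malt1_V87R, 1.22 ± 0.15 in Malt1_L88D and 0.95 ± 0.16 in Malt1_WT, and in Malt1_PD its value of 0.33 ± 0.16 was not called (adjusted p = 0.1). Of the distinct 100-base windows of Ifit3 transcripts, 31.7% also occur in Ifit3b, so the split of reads between the pair is uncertain. Ifit2, which binds RNA and promotes apoptosis, had 51.1, 54.2 and 46.4 CPM in Malt1_V87R, 52.0, 49.6 and 54.4 in Malt1_L88D, 38.99, 38.5 and 42.4 in Malt1_PD, 56.4, 58.6 and 65.8 in Malt1_WT and 34.9, 37.996 and 36.2 in Vector cells. Its value in Malt1_PD against Vector, 0.14 ± 0.07, was not called either, and it was lower in Malt1_PD than in Malt1_WT (-0.59 ± 0.07, adjusted p = 8.9e-08).

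The OAS enzymes are activated by double-stranded RNA and make the oligoadenylates that switch on RNase L. Oas1a (chromosome 5, 120896256 to 120907521, GRCm38) was at 84.9, 83.9 and 90.6 CPM in Malt1_V87R, 88.5, 88.4 and 88.8 in Malt1_L88D, 140.4, 123 and 141 in Malt1_PD, 140.0, 120.2 and 140.4 in Malt1_WT and 77.6, 74.6 and 73.2 in Vector cells. Here the Malt1_PD and Malt1_WT libraries overlapped each other and lay above both death-domain mutants. Oas1g had 30.7, 31.5 and 30.0 CPM in Malt1_V87R, 31.5, 30.3 and 31.1 in Malt1_L88D, 49.2, 48.1 and 48.6 in Malt1_PD, 52.1, 46.6 and 48.1 in Malt1_WT and 24.4, 21.98 and 23.5 in Vector cells, the same order. Oas1a differed from Malt1_WT by -0.63 ± 0.06 in Malt1_V87R (adjusted p = 2.8e-10) and -0.59 ± 0.06 in Malt1_L88D (adjusted p = 1.1e-09), and by 0.02 ± 0.06 in Malt1_PD, which was not called (95% interval -0.10 to 0.13). Its rise in Malt1_V87R against Vector (0.20 ± 0.06, adjusted p = 0.021) ended under 3 of 13 settings. Oas1g differed by -0.67 ± 0.06, -0.66 ± 0.06 and -0.01 ± 0.06 in the same constructs, called in the death-domain mutants and not in Malt1_PD. These genes share many windows (40.9% of those of Oas1a also occur in Oas1g), so they may not be separate measurements.

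The other OAS genes followed different orders. Oas2 averaged 26.4 CPM in Malt1_V87R, 27.8 in Malt1_L88D, 20.3 in Malt1_PD, 18.6 in Malt1_WT and 18.1 in Vector cells, and rose against Vector in Malt1_V87R (0.55 ± 0.10, adjusted p = 3.1e-04) and Malt1_L88D (0.62 ± 0.10, adjusted p = 5.4e-05) but was not called in Malt1_PD or Malt1_WT. Both death-domain mutants also exceeded Malt1_WT, by 0.51 ± 0.10 and 0.59 ± 0.10 (adjusted p = 1.5e-04 and 2.9e-05). Oas3 averaged 142 CPM in Malt1_V87R, 156 in Malt1_L88D, 149 in Malt1_PD, 123 in Malt1_WT and 108 in Vector cells and was called higher in all 4 constructs, with the smallest rise in Malt1_WT (0.18 ± 0.05). Oasl1, which in mice limits translation of the interferon regulator IRF7, averaged 15.96 CPM in Malt1_V87R, 17.99 in Malt1_L88D, 23.1 in Malt1_PD, 17.9 in Malt1_WT and 18.3 in Vector cells. It was called against Vector only in the Malt1_PD comparison (0.34 ± 0.09, adjusted p = 0.0036), and Malt1_PD also exceeded Malt1_WT by 0.38 ± 0.10 (adjusted p = 0.0047), each call ending under 1 of 13 settings. Oasl2, an OAS-like protein with ubiquitin-like domains, averaged 243 CPM in Malt1_V87R, 246 in Malt1_L88D, 212 in Malt1_PD, 215 in Malt1_WT and 142 in Vector cells and was called higher in all 4. Oas1b, the flavivirus-resistance gene that carries a truncating allele in common laboratory mice and that GENCODE M21 annotates as a polymorphic pseudogene, averaged 18.8 CPM in Malt1_V87R, 19.2 in Malt1_L88D, 15.2 in Malt1_PD, 18.9 in Malt1_WT and 12.8 in Vector cells and was also called higher in all 4, a call that ended under 5 of 13 settings in Malt1_PD.

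Among the sensors, Zbp1 changed far more than the rest. ZBP1 binds Z-form nucleic acid and can trigger necroptosis. Zbp1 (chromosome 2, 173206612 to 173218923, minus strand) had 83.9, 90.7 and 93.2 CPM in Malt1_V87R, 94.4, 88.5 and 90.3 in Malt1_L88D, 43.6, 37.1 and 49.6 in Malt1_PD, 82.7, 77.0 and 86.3 in Malt1_WT and 20.3, 17.6 and 16.9 in Vector cells. Every construct library exceeded every vector library, and the Malt1_PD libraries lay below all other construct libraries. The log2 fold change against Vector was 2.29 ± 0.09 in Malt1_V87R (adjusted p = 2.7e-14), 2.31 ± 0.09 in Malt1_L88D (adjusted p = 2.4e-14), 1.248 ± 0.09 in Malt1_PD (adjusted p = 2.8e-10) and 2.16 ± 0.09 in Malt1_WT (adjusted p = 9.1e-15). Malt1_V87R differed from Malt1_WT by 0.12 ± 0.07, with a 95% interval of -0.03 to 0.28, and was not called.

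The RNA helicases moved by less. Ifih1, the sensor of long double-stranded RNA known as MDA5, had 81.1, 80.6 and 74.5 CPM in Malt1_V87R, 83.9, 77.0 and 82.4 in Malt1_L88D, 75.6, 76.5 and 81.1 in Malt1_PD, 79.7, 81.7 and 84.5 in Malt1_WT and 58.2, 62.1 and 63.7 in Vector cells. The 4 constructs overlapped one another and lay above the vector libraries, with log2 fold changes between 0.34 and 0.42, all called. Ddx58, which encodes RIG-I, averaged 164 CPM in Malt1_V87R, 167 in Malt1_L88D, 202 in Malt1_PD, 177 in Malt1_WT and 147 in Vector cells, with its highest level in Malt1_PD, which exceeded Malt1_WT by 0.19 ± 0.04 (adjusted p = 0.0012). Dhx58, encoding the regulator LGP2, averaged 55.5 CPM in Malt1_V87R, 59.8 in Malt1_L88D, 60.2 in Malt1_PD, 55.7 in Malt1_WT and 47.2 in Vector cells and was called higher in all 4 constructs, in Malt1_V87R with a call that ended under 4 of 13 settings. Eif2ak2, the kinase PKR that stops translation on double-stranded RNA, averaged 184 CPM in Malt1_V87R, 183 in Malt1_L88D, 159 in Malt1_PD, 163 in Malt1_WT and 139 in Vector cells, and both death-domain mutants were called above Malt1_WT (0.18 ± 0.05 and 0.16 ± 0.05), each call ending under 2 of 13 settings. Adar, which edits double-stranded RNA and so limits its sensing, averaged 129 CPM in Malt1_V87R, 129 in Malt1_L88D, 121 in Malt1_PD, 128 in Malt1_WT and 114 in Vector cells and was called higher in Malt1_V87R, Malt1_L88D and Malt1_WT by 0.18 to 0.19 on the log2 scale, with the Malt1_V87R call ending under 1 of 13 settings.

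ISG15 is a ubiquitin-like protein that HERC6 attaches to other proteins in mice and that USP18 removes. USP18 also blocks signalling at the type I interferon receptor. The 3 genes had 3 different orders. Isg15 was at 111, 106 and 114 CPM in Malt1_V87R, 118, 105 and 101 in Malt1_L88D, 143, 117 and 158 in Malt1_PD, 138, 114 and 131 in Malt1_WT and 94.1, 85.3 and 90.3 in Vector cells. It rose in Malt1_PD (0.63 ± 0.10, adjusted p = 2.1e-04) and Malt1_WT (0.50 ± 0.10, adjusted p = 0.0011), while in Malt1_V87R (0.29 ± 0.10, adjusted p = 0.096) and Malt1_L88D (0.26 ± 0.10, adjusted p = 0.11) it was not called, although no library of either overlapped the Vector range. Both were called under 4 of 13 settings. Herc6 had 117, 127 and 114 CPM in Malt1_V87R, 124, 113 and 116 in Malt1_L88D, 70.0, 74.2 and 82.0 in Malt1_PD, 109, 101 and 116 in Malt1_WT and 56.7, 63.6 and 60.2 in Vector cells. The death-domain mutants and Malt1_WT overlapped and lay well above Malt1_PD, in which Herc6 was lower than in Malt1_WT (-0.53 ± 0.06, adjusted p = 3.8e-07). Of the windows of Herc6, 10.3% also occur in Gm45193, which overlaps it on the same strand, so the assignment of such reads is uncertain. Usp18 had 119, 118 and 118 CPM in Malt1_V87R, 136, 129 and 119 in Malt1_L88D, 142, 129 and 167 in Malt1_PD, 103, 93.9 and 100.2 in Malt1_WT and 107, 108 and 99.8 in Vector cells. Malt1_PD reached the highest values and overlapped Malt1_L88D, and Malt1_WT overlapped the vector. Malt1_PD and Malt1_WT differed by 0.56 ± 0.07 (adjusted p = 1.4e-05), and Malt1_WT was not called against Vector (-0.08 ± 0.07, 95% interval -0.23 to 0.07).

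The Mx genes encode dynamin-like GTPases that trap viral nucleocapsids, and RefSeq annotates both mouse genes of the reference strain as transcribed pseudogenes. Mx1 had 14.8, 16.6 and 12.7 CPM in Malt1_V87R, 14.2, 17.0 and 16.01 in Malt1_L88D, 14.3, 12.8 and 16.9 in Malt1_PD, 9.52, 10.6 and 8.99 in Malt1_WT and 11.6, 9.70 and 7.93 in Vector cells. The Malt1_WT libraries lay within the vector range and below every mutant library. Against Malt1_WT it was higher in Malt1_V87R (0.59 ± 0.13, adjusted p = 5.7e-04), Malt1_L88D (0.70 ± 0.13, adjusted p = 1.1e-04) and Malt1_PD (0.59 ± 0.13, adjusted p = 0.002), and between Malt1_WT and Vector the difference was not called (95% interval -0.29 to 0.29). Mx2 had 12.9, 12.6 and 12.6 CPM in Malt1_V87R, 13.3, 12.5 and 14.2 in Malt1_L88D, 11.6, 12.0 and 13.3 in Malt1_PD, 19.0, 14.8 and 17.97 in Malt1_WT and 8.03, 8.35 and 9.06 in Vector cells. Here Malt1_WT was above every other library. Against Malt1_WT it was lower in Malt1_V87R (-0.44 ± 0.09, adjusted p = 3.1e-04), Malt1_L88D (-0.37 ± 0.10, adjusted p = 0.0021) and Malt1_PD (-0.48 ± 0.10, adjusted p = 4.2e-04), and Malt1_WT exceeded Vector by 1.02 ± 0.10. Of their windows, 0.929% of those of Mx1 and 1.13% of those of Mx2 occur in the other gene.

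The membrane factors were high and moved little. Per kilobase of exon, Ifitm3, which blocks fusion of virus with the endosome, was the most abundant member, at 1125 CPM per kb in Vector cells, followed by Bst2, the tether that holds budding virions, at 325 CPM per kb. Bst2 had 319, 316 and 339 CPM in Malt1_V87R, 321, 318 and 305 in Malt1_L88D, 337, 289 and 339.6 in Malt1_PD, 278, 256 and 264 in Malt1_WT and 307, 286 and 287 in Vector cells. The Malt1_WT libraries were below all others. In Malt1_WT it was the single member called lower than Vector (-0.14 ± 0.05, adjusted p = 0.019), a call that was lost when Malt1_WT replicate 2 (adjusted p = 0.161), Malt1_WT replicate 3 (0.0934), Vector replicate 1 (0.168) or Vector replicate 3 (0.0508) was left out. Against Vector, Malt1_PD was called higher (0.13 ± 0.05, adjusted p = 0.033), a call that ended under 7 of 13 settings. All 3 mutants were called above Malt1_WT, by 0.29 ± 0.05 in Malt1_V87R, 0.24 ± 0.05 in Malt1_L88D and 0.28 ± 0.05 in Malt1_PD. Ifitm3 averaged 800.1 CPM in Malt1_V87R, 772 in Malt1_L88D, 940.1 in Malt1_PD, 785 in Malt1_WT and 762 in Vector cells and was called against Vector in Malt1_PD alone of the 4 comparisons (0.30 ± 0.05, adjusted p = 1.3e-04).

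**Figure D3:**
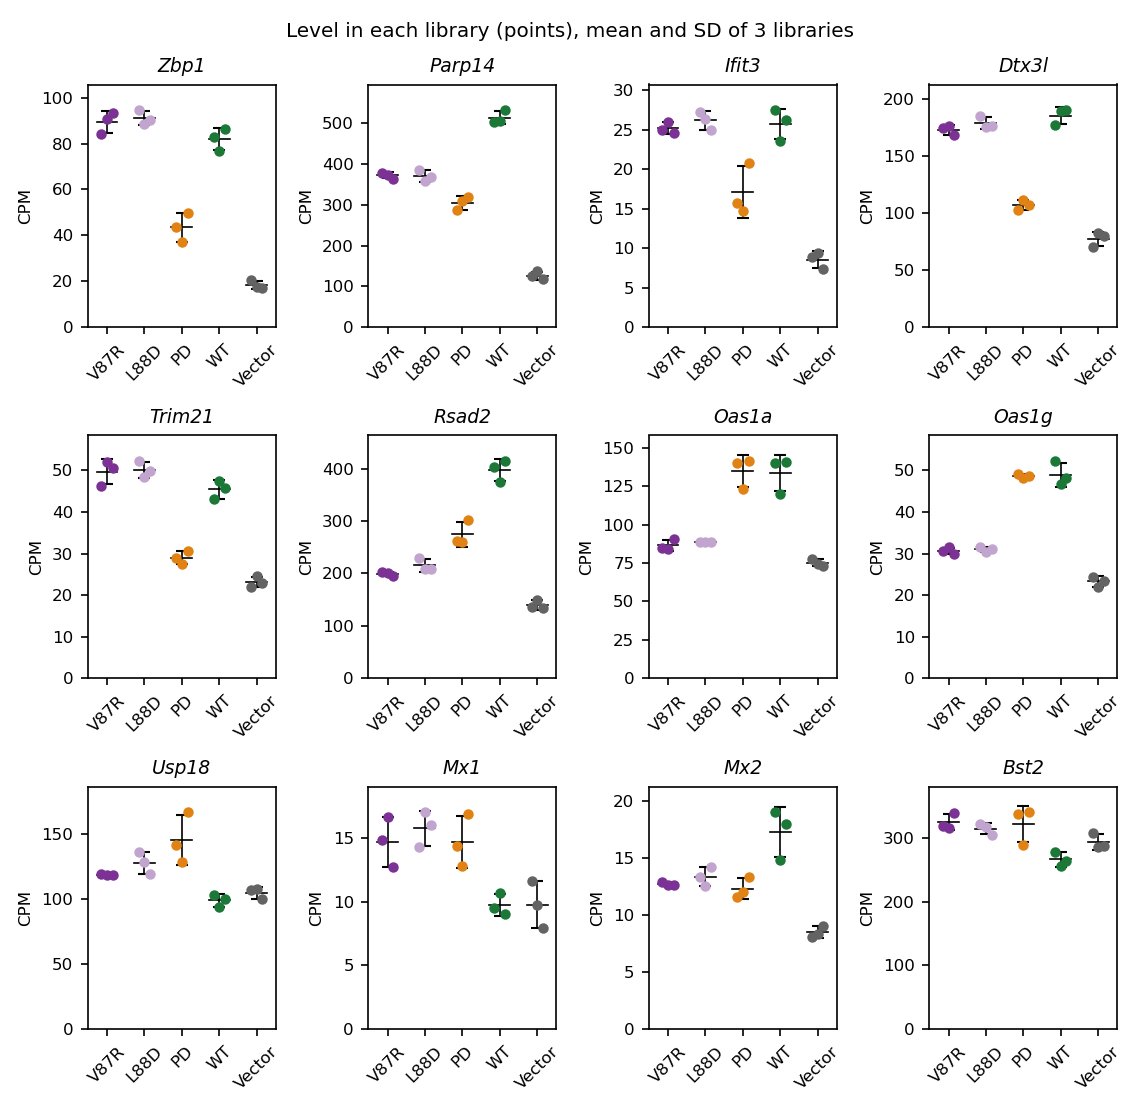
Level in CPM (vertical axis, from 0) of 12 members in each library of the 5 groups, with the mean (bar) and SD (whiskers) of 3 libraries. Zbp1, Ifit3, Dtx3l and Trim21 are near the Malt1_WT level in Malt1_V87R and Malt1_L88D and lower in Malt1_PD, whereas Rsad2, Oas1a and Oas1g are lower in the death-domain mutants than in Malt1_PD and Malt1_WT.

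Among enzymes that act on nucleotides and RNA, Rsad2 separated the constructs most. It encodes viperin, which makes a chain-terminating nucleotide. Rsad2 (chromosome 12, 26442746 to 26456452, minus strand) had 203, 200.4 and 195 CPM in Malt1_V87R, 230.0, 208 and 208 in Malt1_L88D, 262, 261 and 302 in Malt1_PD, 404, 374 and 414 in Malt1_WT and 135, 149.8 and 134 in Vector cells. Malt1_WT was highest, Malt1_PD intermediate and the death-domain mutants lower, with the vector below all of them. Against Malt1_WT it was -0.99 ± 0.06 in Malt1_V87R (adjusted p = 2.9e-12), -0.88 ± 0.06 in Malt1_L88D (adjusted p = 2.5e-11) and -0.53 ± 0.06 in Malt1_PD (adjusted p = 4.4e-07). Its neighbour Cmpk2, a mitochondrial nucleotide kinase on the opposite strand, had another order, averaging 139 CPM in Malt1_V87R, 139 in Malt1_L88D, 102 in Malt1_PD, 128 in Malt1_WT and 97.1 in Vector cells. Cmpk2 rose against Vector in Malt1_V87R, Malt1_L88D and Malt1_WT, and its value in Malt1_PD (0.08 ± 0.05, adjusted p = 0.22) was not called. Isg20, an exonuclease that degrades RNA, had 46.7, 49.6 and 54.4 CPM in Malt1_V87R, 51.3, 55.9 and 51.2 in Malt1_L88D, 53.0, 52.2 and 57.9 in Malt1_PD, 69.2, 62.0 and 66.0 in Malt1_WT and 41.8, 40.02 and 44.1 in Vector cells, and like Rsad2 it was lower than Malt1_WT in all 3 mutants (-0.39, -0.31 and -0.27 on the log2 scale, in the order Malt1_V87R, Malt1_L88D and Malt1_PD). Samd9l, a translation-blocking restriction factor, averaged 433 CPM in Malt1_V87R, 431 in Malt1_L88D, 424 in Malt1_PD, 448 in Malt1_WT and 315 in Vector cells, and no mutant was called different from Malt1_WT.

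All 6 ADP-ribosylation and ubiquitin ligase genes rose in all 4 constructs, and all 6 were lower in Malt1_PD than in Malt1_WT. For 5 of them these calls held under all 13 settings. Those of Trim25 ended under 5 of 13 in Malt1_L88D against Vector, 4 in Malt1_PD against Vector and 4 in Malt1_PD against Malt1_WT. PARP14 adds single ADP-ribose groups to proteins. Parp14 (chromosome 16, 35832874 to 35871544, minus strand) had 379, 374 and 365 CPM in Malt1_V87R, 386, 358 and 369 in Malt1_L88D, 287, 310.4 and 319.7 in Malt1_PD, 504, 507 and 532 in Malt1_WT and 125, 137 and 118 in Vector cells. No 2 of Malt1_WT, the death-domain pair and Malt1_PD overlapped, and the vector libraries lay below all of them. Against Malt1_WT the differences were -0.46 ± 0.05 in Malt1_V87R, -0.47 ± 0.05 in Malt1_L88D and -0.75 ± 0.05 in Malt1_PD (largest adjusted p = 1.5e-09).

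DTX3L is a ubiquitin ligase that forms a complex with PARP9. Dtx3l had 175, 177 and 168 CPM in Malt1_V87R, 185, 176 and 177 in Malt1_L88D, 103, 112 and 107 in Malt1_PD, 178, 189.6 and 190.3 in Malt1_WT and 70.7, 82.4 and 79.9 in Vector cells. Malt1_L88D overlapped both Malt1_V87R and Malt1_WT, Malt1_PD lay well below them and the vector was lowest. Malt1_PD was -0.80 ± 0.05 against Malt1_WT (adjusted p = 5.0e-13), and Malt1_V87R was -0.10 ± 0.05, which was not called (adjusted p = 0.086). Parp9 lies head to head with Dtx3l and overlaps it at their starts on chromosome 16, 35938470 to 35939151. It averaged 185 CPM in Malt1_V87R, 173 in Malt1_L88D, 138 in Malt1_PD, 163 in Malt1_WT and 98.4 in Vector cells, and since the strand setting of the counting is not given in the sources used here, reads of the overlap cannot be assigned with certainty. Trim21, a cytosolic antibody receptor and ubiquitin ligase, had 46.3, 52.1 and 50.6 CPM in Malt1_V87R, 52.1, 48.4 and 49.9 in Malt1_L88D, 29.0, 27.4 and 30.7 in Malt1_PD, 43.1, 47.6 and 45.8 in Malt1_WT and 21.96, 24.5 and 22.9 in Vector cells. Malt1_PD lay between the vector and the other constructs and overlapped neither. Against Malt1_WT it was -0.65 ± 0.07 in Malt1_PD (adjusted p = 1.2e-08). Parp12, which binds RNA and blocks translation, averaged 323 CPM in Malt1_V87R, 328 in Malt1_L88D, 237 in Malt1_PD, 302 in Malt1_WT and 178 in Vector cells, and Trim25, a ubiquitin ligase that assists RIG-I, averaged 193 CPM in Malt1_V87R, 186 in Malt1_L88D, 186 in Malt1_PD, 202 in Malt1_WT and 172 in Vector cells. Trim25 changed least of the 6, by 0.11 to 0.23 against Vector.

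Of the 5 other members, Ifi44, Rtp4 and Xaf1 rose in all 4 constructs. Ifi44, an interferon-induced protein that restrains proliferation, had 168, 175 and 160.4 CPM in Malt1_V87R, 177, 183 and 188 in Malt1_L88D, 129.6, 142 and 149 in Malt1_PD, 141, 138 and 150.3 in Malt1_WT and 92.3, 105 and 91.8 in Vector cells. Malt1_PD and Malt1_WT overlapped, below both death-domain mutants. The death-domain mutants exceeded Malt1_WT by 0.23 ± 0.05 and 0.35 ± 0.05. Xaf1, an antagonist of the apoptosis inhibitor XIAP, had 104, 107 and 112 CPM in Malt1_V87R, 109.6, 105 and 105 in Malt1_L88D, 96.0, 90.4 and 99.6 in Malt1_PD, 124, 114 and 121 in Malt1_WT and 66.3, 62.5 and 65.9 in Vector cells and was called lower than Malt1_WT in all 3 mutants, with the largest difference in Malt1_PD (-0.32). Rtp4, a chaperone of membrane receptors, averaged 89.2 CPM in Malt1_V87R, 87.3 in Malt1_L88D, 76.5 in Malt1_PD, 89.2 in Malt1_WT and 60.7 in Vector cells. It shares 9.28% of its windows with Gm45338, which overlaps it on the same strand, so the assignment of such reads is uncertain. Ifi35 averaged 66.7 CPM in Malt1_V87R, 66.4 in Malt1_L88D, 67.4 in Malt1_PD, 63.1 in Malt1_WT and 57.9 in Vector cells and was called in Malt1_PD (0.22 ± 0.08, adjusted p = 0.041), a call that ended under 6 of 13 settings. The uncalled values of 0.20 in Malt1_V87R, 0.19 in Malt1_L88D and 0.12 in Malt1_WT were called under 3, 3 and 1 of them. Ifi27 averaged 48.4 CPM in Malt1_V87R, 47.4 in Malt1_L88D, 53.9 in Malt1_PD, 58.2 in Malt1_WT and 50.3 in Vector cells, was called higher in Malt1_WT (0.21 ± 0.07, adjusted p = 0.0098), a call that ended under 1 of 13 settings, and was not called in the other constructs.

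The mutants were then compared with the wild type. Malt1_PD had 19 members lower than Malt1_WT (48.7%, against 10.7% of all genes) and 7 higher (17.9%, against 12.6%), with a median of -0.11 on the log2 scale beside 0.01 over all genes. The lower ones were the 4 IFIT genes, the 6 ADP-ribosylation and ubiquitin ligase genes, Oas1b, Zbp1, Herc6, Mx2, Rsad2, Cmpk2, Isg20, Rtp4 and Xaf1. The higher ones were Mx1, Usp18, Oasl1, Oas3, Bst2, Ifitm3 and Ddx58, between 0.19 and 0.59 on the log2 scale. Beside Trim25 and Oasl1, the call of Oas1b ended under 2 of 13 settings. No member differed by 2-fold or more, and Zbp1, at 0.531 of its Malt1_WT level, was the farthest.

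Malt1_V87R had 10 members higher (25.6%, against 24.9% of all genes) and 11 lower (28.2%, against 23.4%) than Malt1_WT, and Malt1_L88D had 9 higher (23.1%, against 22.8%) and 11 lower (28.2%, against 22.3%). These shares are close to those of all genes, so the members as a list did not stand out by number of calls. The median absolute log2 difference of the members was 0.16 in each, beside 0.26 over all genes in Malt1_V87R and 0.25 in Malt1_L88D. Between Malt1_V87R and Malt1_L88D, where no gene was called, the members' median was also the smaller (0.04, beside 0.07 over all genes). The smaller medians are therefore not read as a result about the members. Both mutants had Oas2, Oas3, Oasl2, Eif2ak2, Usp18, Mx1, Bst2, Ifi44 and Parp12 above Malt1_WT, and Malt1_V87R also Parp9. The Parp12 call ended under 11 of 13 settings in Malt1_V87R and 3 in Malt1_L88D, and that of Oasl2 under 1 in Malt1_V87R. Both had Ifit1, Ifit2, Oas1a, Oas1g, Mx2, Rsad2, Isg20, Parp14, Ifi27 and Xaf1 below it. Ifit2 in Malt1_L88D lost its call under 1 of 13. Ddx58 was lower in Malt1_V87R (ended under 4 of 13) and Trim25 in Malt1_L88D (ended under 2 of 13), without a test that separates those mutants.

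Set against Malt1_PD, Malt1_V87R had 18 members higher (46.2%, against 20.4% of genes) and 8 lower (20.5%, against 21.1%), and Malt1_L88D had 18 higher (46.2%, against 20%) and 9 lower (23.1%, against 21.4%). Zbp1 was 1.04 ± 0.08 in Malt1_V87R and 1.06 ± 0.08 in Malt1_L88D, the only member past 2-fold in either. Ifit3b, Trim21, Dtx3l and Herc6 were next, between 0.64 and 0.89. Oas1a and Oas1g differed by -0.66 to -0.61 on the log2 scale, and Oasl1, Rsad2, Isg15, Ddx58, Usp18 and Ifitm3 were lower too, as was Ifi27 in Malt1_L88D. In Malt1_L88D the call of Usp18 ended under 8 of 13 settings and that of Ifi27 under 5, and in Malt1_V87R that of Isg15 under 2.

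Malt1_V87R and Malt1_L88D differ from the wild type at adjacent residues, and between them 0 of 39 members were called, with 0% of all genes called. At an unadjusted p under 0.05, 1 member was higher and 2 lower in Malt1_V87R, and DESeq2 called 0. Over all genes, 852 passed that unadjusted limit and DESeq2 called 0. The median absolute difference was 0.04 on the log2 scale. The 95% intervals of all 39 lay within 0.5 on either side of 0, the lowest bound being -0.39 (Ifit3b) and the highest 0.25 (Isg15), so differences larger than those bounds lie outside every interval, and smaller ones may exist.

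**Figure D4:**
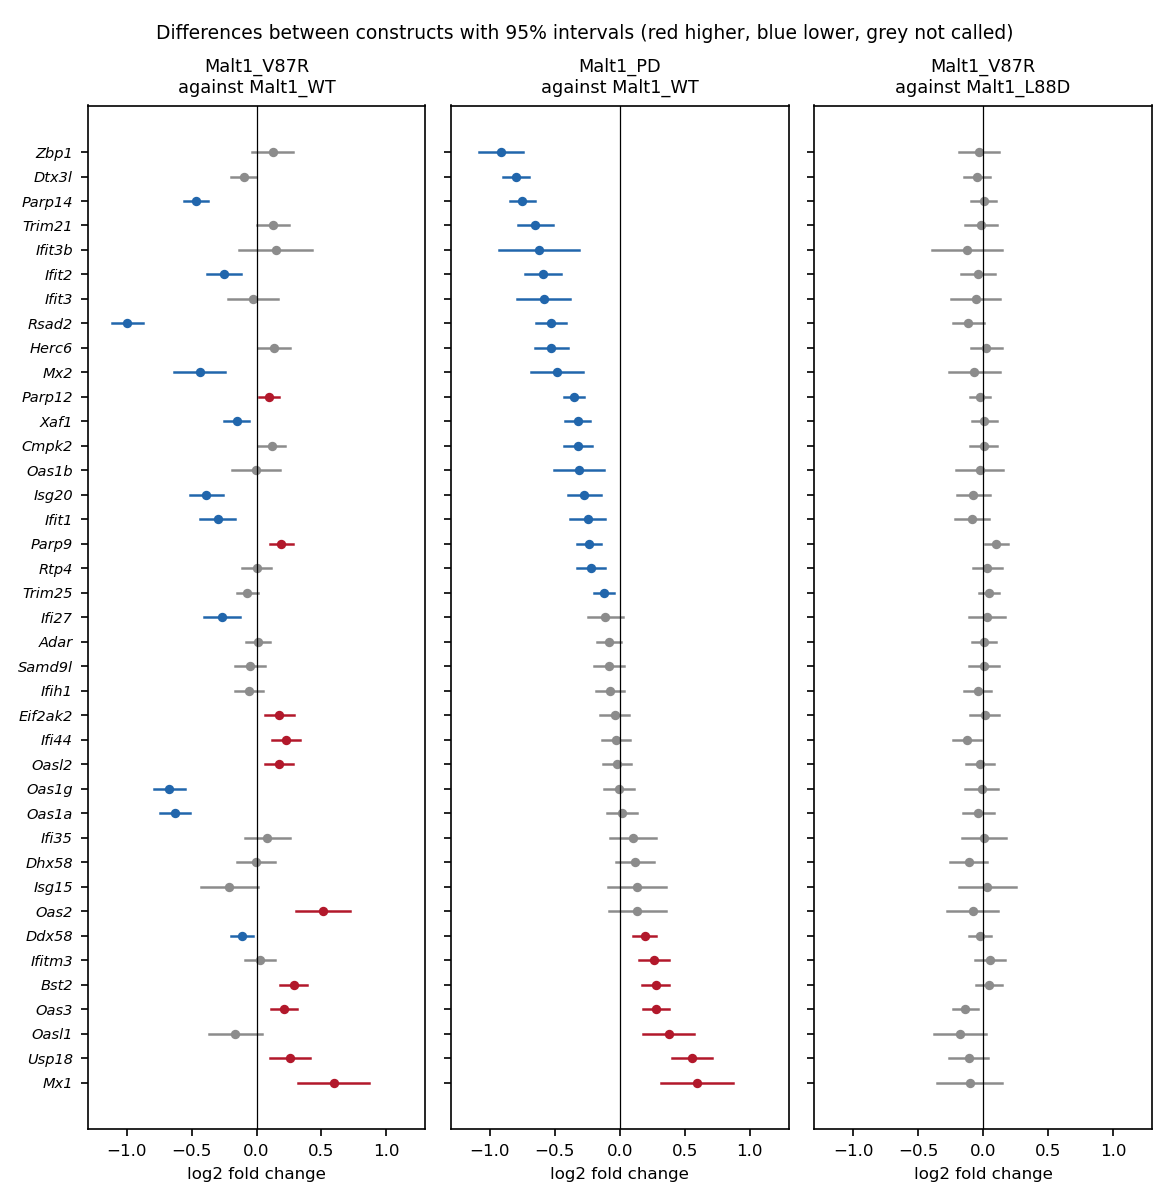
Log2 fold change (horizontal axis) of each of the 39 members with its 95% interval, for Malt1_V87R against Malt1_WT, Malt1_PD against Malt1_WT and Malt1_V87R against Malt1_L88D, sorted by the middle panel. Zbp1, Dtx3l and Parp14 head the falls in Malt1_PD, Rsad2, Oas1g and Oas1a are the largest falls in Malt1_V87R, and every interval in the right panel lies within 0.5 of 0.

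No construct was highest for all members. By group mean, 7 members were highest in Malt1_V87R, 11 in Malt1_L88D, 8 in Malt1_PD, 13 in Malt1_WT and 0 in Vector cells, and 34 were lowest in Vector cells. Since no member was called between Malt1_V87R and Malt1_L88D, their order within the pair is not resolved.

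Of the 38 interferon pathway genes listed, 28 were tested. The ligands were not: Ifna1, Ifnl2 and Ifnl3 had 0 counts in every library, which allows up to 3 counts each per library, and the interferon beta gene Ifnb1 had 13 counts over 3 libraries in Malt1_V87R, 3 in Malt1_L88D, 14 in Malt1_PD, 8 in Malt1_WT and 13 in Vector cells, with at most 6 in a library. Of the 28 tested, 16 rose in Malt1_V87R (0 fell in edgeR and in DESeq2, 2 at an unadjusted p under 0.05), 16 in Malt1_L88D (1 fell), 20 in Malt1_PD (3 fell) and 20 in Malt1_WT (2 fell), all against Vector, with median log2 fold changes of 0.22, 0.20, 0.26 and 0.35. Of all genes tested, 7.01%, 8.96%, 22.8% and 27.2% rose in these constructs, in the same order, and 4.7%, 8.43%, 22% and 27.7% fell.

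Of the transcription factors Stat2, Irf9 and Irf7, Stat2 separated the constructs most. Stat2 had 253, 236 and 245 CPM in Malt1_V87R, 240.4, 233 and 245 in Malt1_L88D, 113, 104 and 116 in Malt1_PD, 189, 168 and 181 in Malt1_WT and 93.3, 96.1 and 89.3 in Vector cells. Both death-domain mutants lay above Malt1_WT, Malt1_PD lay below it and the vector was lowest, with no overlap between these levels. Against Malt1_WT, Stat2 was 0.45 ± 0.05 in Malt1_V87R (adjusted p = 3.3e-09), 0.42 ± 0.05 in Malt1_L88D (adjusted p = 1.5e-08) and -0.69 ± 0.05 in Malt1_PD (adjusted p = 6.3e-12). Irf9, its partner in the ISRE-binding complex, had 81.6, 81.3 and 84.5 CPM in Malt1_V87R, 82.7, 80.1 and 79.7 in Malt1_L88D, 74.6, 64.2 and 75.5 in Malt1_PD, 77.9, 78.6 and 81.7 in Malt1_WT and 70.9, 66.4 and 62.3 in Vector cells, and was called against Vector in all constructs but Malt1_PD. Irf7, which amplifies type I interferon production, had 59.4, 56.7 and 58.7 CPM in Malt1_V87R, 61.7, 55.8 and 56.5 in Malt1_L88D, 59.9, 51.6 and 62.4 in Malt1_PD, 58.7, 48.8 and 54.5 in Malt1_WT and 42.1, 41.0 and 40.8 in Vector cells, and was called higher in all 4, with no mutant called different from Malt1_WT.

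Irf1 had 368, 350.3 and 363 CPM in Malt1_V87R, 342, 351 and 351 in Malt1_L88D, 107, 97.8 and 101 in Malt1_PD, 433, 398 and 436 in Malt1_WT and 58.7, 56.0 and 55.6 in Vector cells. Malt1_WT was highest, the death-domain mutants were slightly lower (-0.23 ± 0.04 and -0.28 ± 0.04), and Malt1_PD lay far below them (-2.05 ± 0.04, adjusted p = 5.0e-24). Socs1, an inhibitor of JAK kinases, had 32.0, 29.2 and 29.0 CPM in Malt1_V87R, 32.5, 31.2 and 32.6 in Malt1_L88D, 23.8, 17.5 and 18.8 in Malt1_PD, 59.3, 49.2 and 56.9 in Malt1_WT and 8.77, 10.1 and 12.3 in Vector cells. Malt1_WT was again highest, above every mutant library. Ikbke, a kinase that acts upstream of interferon production, had 20.8, 23.3 and 23.5 CPM in Malt1_V87R, 22.4, 22.9 and 26.2 in Malt1_L88D, 49.9, 46.7 and 50.8 in Malt1_PD, 50.1, 47.5 and 47.4 in Malt1_WT and 17.4, 14.2 and 16.6 in Vector cells, so that Malt1_PD and Malt1_WT lay well above the death-domain mutants (-1.10 ± 0.07, adjusted p = 2.0e-13, for Malt1_V87R against Malt1_WT).

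**Figure D5:**
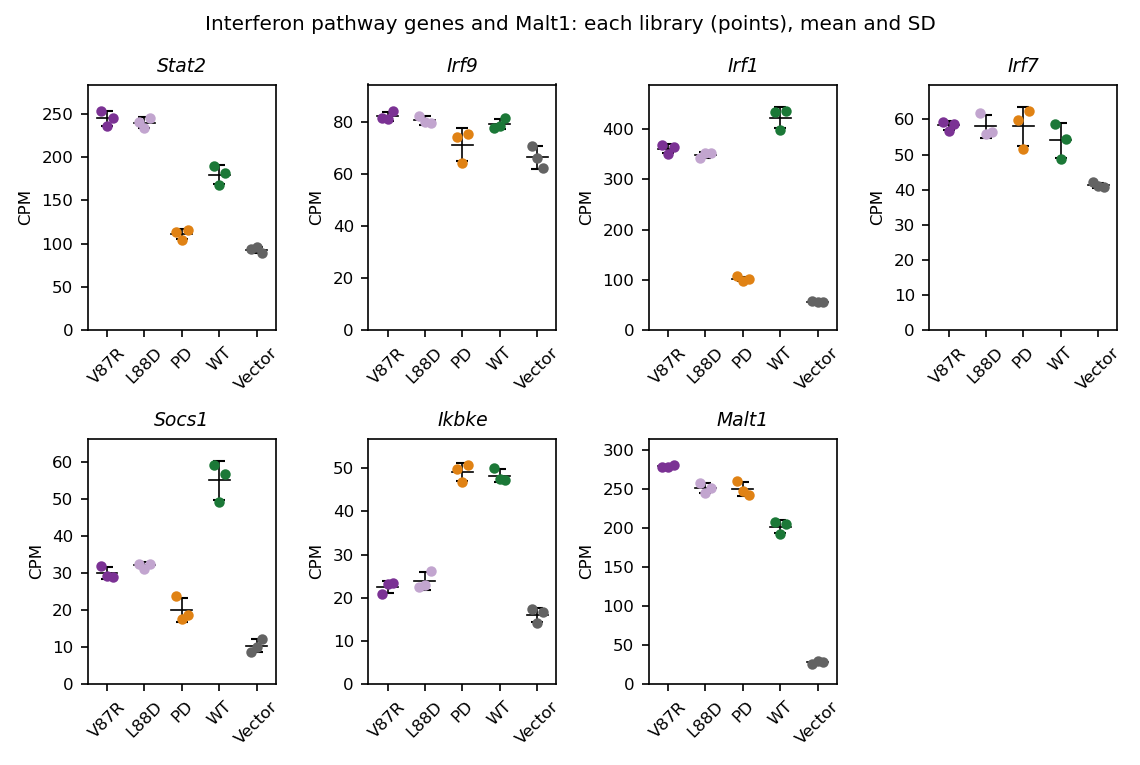
Level in CPM (vertical axis, from 0) of 6 interferon pathway genes and Malt1 in each library, with the mean (bar) and SD (whiskers) of 3 libraries. Stat2 is highest in Malt1_V87R and Malt1_L88D, Irf1 is high in these and in Malt1_WT but not in Malt1_PD, and Ikbke is high in Malt1_PD and Malt1_WT.

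Beside these results, the summed macrophage and dendritic cell markers in Malt1_V87R (43.5 to 47.0 CPM) overlapped the Vector range (45.7 to 48.8 CPM), with 0 of 9 tested markers called by edgeR and by DESeq2 and 1 lower at an unadjusted p under 0.05, while 32 members rose there. In Malt1_L88D 3 of the 9 were called higher, in Malt1_PD 8 higher and 1 lower, and in Malt1_WT 5 higher and 1 lower. The shares of all genes called higher were 7.01% in Malt1_V87R, 8.96% in Malt1_L88D, 22.8% in Malt1_PD and 27.2% in Malt1_WT. Those called lower were 4.7%, 8.43%, 22% and 27.7%, in the same order. The endothelial sums moved as well, below the vector in Malt1_V87R and Malt1_L88D and above it in Malt1_PD and Malt1_WT. The part of these cell types in the members' levels was not tested.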

How the data were processed

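For 15 libraries total RNA was prepared with a directional kit and read from both ends, per the labels' protocols. The authors deposited whole-number counts per gene symbol, and per the submitters' processing notes the tools were featureCounts 1.6.3, STAR 2.7.3a and Trim Galore 0.6.0, with build GRCm38.p6. No source used here gives the strand setting, annotation release or handling of multiply mapped reads. The Malt1_PD columns carry the name Malt1_C461A and were assigned because no other labelled construct lacked columns.

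Counts were analysed with edgeR 4.0.16 in R 4.3.3: filterByExpr (14571 of 55571 rows), TMM scaling, a robust quasi-likelihood fit with 1 mean per group, 10 two-sided contrasts and Benjamini-Hochberg adjustment at 0.05. CPM used TMM-scaled totals. DESeq2 1.42.0 and other settings were alternatives. Counts were simulated for Malt1_WT against Vector (13955 genes), with 50 genes changed at each fold. The test found 4% of genes with a simulated 1.1-fold change, 40% of those changed 1.25-fold, 58% of 1.5-fold ones and 80% of 2-fold ones. There 5 of 96 calls were of unchanged genes. The real comparison called 3958 genes higher and 4039 lower of 14571, so its cutoff on p was looser. The simulated rates therefore do not describe its calls.

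Members and lists were chosen with earlier results of these data known. Every library is given for the 8 largest rises and any fall in Malt1_WT against Vector, the 6 largest falls and rises of at least 0.5 (log2) in Malt1_PD against Malt1_WT, the 4 largest changes in each of Malt1_V87R and Malt1_L88D against Vector, and up to 2 members of each role with the smallest p in Malt1_WT against Vector. Positions and shared 100-base windows used GENCODE M21 (GRCm38). Replicates differed beyond sampling noise (chi-square per degree of freedom 1.94 to 8.81). A gene of the pathway list is counted in its totals but not reported here by itself. Limits on counts of 0 cover counting error only.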

Additional observations from a re-analysis of the deposited data

How the results depend on the processing

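Alternatives were RLE scaling, library totals only, no filter on low counts, DESeq2, the replicate number as a block, only the 6 libraries compared, each library left out in turn and, chosen after seeing the data, upper-quartile scaling. Over these, members higher than Vector numbered 28 to 36 in Malt1_V87R, 32 to 35 in Malt1_L88D, 28 to 36 in Malt1_PD and 31 to 33 in Malt1_WT. The single fall in Malt1_WT, Bst2, ranged from 0 to 1 as libraries were left out, and beyond the smaller number of libraries the cause was not tested. Malt1_PD had 18 to 19 members lower and 6 to 9 higher than Malt1_WT. Malt1_V87R had 8 to 13 higher and 10 to 13 lower than Malt1_WT, and Malt1_L88D 7 to 12 higher and 10 to 13 lower. Against Malt1_PD, Malt1_V87R had 18 to 19 higher and 7 to 10 lower, and Malt1_L88D 17 to 19 higher and 7 to 10 lower. Between Malt1_V87R and Malt1_L88D the count was 0 under every alternative. With the replicate block the numbers higher than Vector were 35 in Malt1_V87R, 35 in Malt1_L88D, 33 in Malt1_PD and 32 in Malt1_WT, but the numbers did not pair the libraries: correlations of same-numbered deviations ran from -0.0513 to 0.15, and in no comparison did all 3 libraries correlate best with their own number. Of 251 member calls over the 10 comparisons, 223 held under all 13 settings, 28 ended under at least 1 and 0 changed sign. Those 28 follow, each with the settings that ended it. In Malt1_WT against Vector they were Bst2 (without Malt1_WT 2, Malt1_WT 3, Vector 1, Vector 3) and Ifi27 (without Vector 2). In Malt1_PD against Vector they were Oas1b (totals, upper quartile, without Malt1_PD 1, Malt1_PD 3, Vector 3), Oasl1 (without Malt1_PD 3), Bst2 (totals, upper quartile, 6 libraries, without Malt1_PD 1, Malt1_PD 3, Vector 2, Vector 3), Trim25 (totals, upper quartile, 6 libraries, without Malt1_PD 3) and Ifi35 (totals, upper quartile, without Malt1_PD 1, Malt1_PD 3, Vector 2, Vector 3). In Malt1_V87R against Vector they were Oas1a (without Malt1_V87R 3, Vector 2, Vector 3), Ddx58 (without Malt1_V87R 2, Vector 3), Dhx58 (without Malt1_V87R 1, Malt1_V87R 3, Vector 1, Vector 3), Adar (without Vector 3) and Isg20 (without Malt1_V87R 3). In Malt1_L88D against Vector it was Trim25 (no filter, without Malt1_L88D 1, Malt1_L88D 2, Vector 1, Vector 3). In Malt1_PD against Malt1_WT they were Oas1b (without Malt1_PD 2, Malt1_WT 1), Oasl1 (without Malt1_PD 3) and Trim25 (no filter, 6 libraries, without Malt1_PD 1, Malt1_WT 3). In Malt1_V87R against Malt1_WT they were Oasl2 (without Malt1_WT 2), Ddx58 (totals, no filter, without Malt1_V87R 3, Malt1_WT 3), Eif2ak2 (without Malt1_V87R 2, Malt1_WT 1) and Parp12 (RLE, no filter, DESeq2, upper quartile, 6 libraries, without Malt1_V87R 1, Malt1_V87R 2, Malt1_V87R 3, Malt1_WT 1, Malt1_WT 2, Malt1_WT 3). In Malt1_L88D against Malt1_WT they were Ifit2 (without Malt1_WT 3), Eif2ak2 (without Malt1_L88D 1, Malt1_WT 1), Parp12 (without Malt1_L88D 1, Malt1_WT 1, Malt1_WT 2) and Trim25 (totals, no filter). In Malt1_V87R against Malt1_PD it was Isg15 (without Malt1_V87R 2, Malt1_PD 1). In Malt1_L88D against Malt1_PD they were Usp18 (totals, replicate block, upper quartile, 6 libraries, without Malt1_L88D 2, Malt1_L88D 3, Malt1_PD 1, Malt1_PD 3), Ifi27 (totals, upper quartile, without Malt1_L88D 2, Malt1_L88D 3, Malt1_PD 1) and Rtp4 (without Malt1_L88D 1, Malt1_PD 2). Membership was 39 with and without TMM scaling. The ligand genes were too low to test, and whether depth or a lack of expression accounts for this was not tested. No scaling moved the median of all genes by more than 0.0479 on the log2 scale.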

Other observations

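Other genes of the interferon pathway list, picked here after their values were seen, moved in orders of their own. Ifngr2, a chain of the interferon gamma receptor, averaged 36.3 ± 0.900 CPM in Malt1_V87R, 34.0 ± 0.855 in Malt1_L88D, 91.6 ± 2.98 in Malt1_PD, 73.9 ± 1.99 in Malt1_WT and 36.6 ± 1.84 in Vector cells (SD, n = 3 each), rising against Vector in Malt1_PD (1.32 ± 0.05, adjusted p = 1.8e-18) and Malt1_WT (1.01 ± 0.05, adjusted p = 7.5e-16) but not called in Malt1_V87R or Malt1_L88D (edgeR). The receptor kinase gene Jak2 averaged 41.3 CPM in Malt1_V87R, 41.4 in Malt1_L88D, 64.2 in Malt1_PD, 81.7 in Malt1_WT and 27.5 in Vector cells and was called higher in all 4. Tlr3, the endosomal sensor of double-stranded RNA, averaged 14.95 CPM in Malt1_V87R, 13.6 in Malt1_L88D, 8.61 in Malt1_PD, 14.5 in Malt1_WT and 8.42 in Vector cells, with Malt1_PD at -0.75 ± 0.12 against Malt1_WT (adjusted p = 1.7e-05). Cgas, the cytosolic DNA sensor, went the other way and averaged 15.2 CPM in Malt1_V87R, 14.67 in Malt1_L88D, 9.74 in Malt1_PD, 10.3 in Malt1_WT and 14.0 in Vector cells, falling against Vector in Malt1_PD (-0.53 ± 0.10, adjusted p = 7.0e-05) and Malt1_WT (-0.45 ± 0.10, adjusted p = 4.5e-04). Mavs, the adaptor of the RNA helicases, fell in the same pair, averaging 55.5 CPM in Malt1_V87R, 59.1 in Malt1_L88D, 49.8 in Malt1_PD, 46.2 in Malt1_WT and 61.2 in Vector cells.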
